A study of Mus musculus with 14 samples.

Results

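The genes described here are 10 known outputs of MAPK signalling: the transcription factor genes Etv1, Etv4 and Etv5, the Sprouty genes Spry1, Spry2 and Spry4, the Spred genes Spred1 and Spred2, and the phosphatase genes Dusp4 and Dusp6. They were found by gene symbol on both array designs, 10 of 22180 named genes on the first design and 10 of 19938 on the second. Where several probe sets carried the symbol, the one with the highest mean over the tumours stood for the gene, so only the mean level chose the probe set. The genes themselves were chosen by their differences in earlier results between Res 499 and control, in which Etv5 was lower. The values of that comparison are therefore a description, and its p-values are not independent support for the choice.

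RNA was measured by microarray in 14 subcutaneous tumours of B16-F10, a pigmented mouse melanoma line, grown in C57BL/6 mice. There were 7 tumours of the subline Res 499, 2 of Res 177 and 5 of control B16-F10 cells, of which 7, 1 and 4 were on the first design and 1 Res 177 and 1 control tumour on the second. Response to radiation combined with antibody blockade of CTLA4 is labelled resistant for Res 499 and Res 177 and sensitive for control. CTLA4 is an inhibitory receptor of T cells. Per the labels and the series text, cells were injected into both flanks, one flank received 20 Gy on day 8, and antibody doses fell on day 5, day 8 and day 11; the sublines were cultured from unirradiated tumours that resisted or relapsed and were then implanted again. All groups carry the same protocol text, and whether the profiled tumours were themselves treated is not stated there. Each subline is 1 cell line, so its tumours are repeats of that line and not of resistance. Values are log2 expression, and a negative difference means a lower signal in the Res tumours.

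Growth factor receptors activate Ras, which passes the signal through the kinases Raf and MEK to ERK. Active ERK relieves repression of Etv1, Etv4 and Etv5 by Capicua, a DNA-binding repressor, and the 3 Etv proteins form the PEA3 group of ETS transcription factors. The same signal induces its own brakes. Sprouty and Spred proteins restrain the activation of Ras and Raf, and Dusp4 and Dusp6 are phosphatases that switch ERK off, Dusp4 in the nucleus and Dusp6 in the cytoplasm. Transcripts of these genes are therefore widely read as a measure of ERK output, in melanoma as elsewhere.

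Capicua is known to bind the octamers TGAATGAA and TGAATGGA, which share the core TGAATG. Promoters of 7 of the 10 genes were matched in RefSeq's mouse table (GRCm38.p6), as 9 windows from 250 bases before to 50 bases after a gene start; Etv4, Spry4 and Dusp4 were not matched. On either strand the core occurred in 2 of the 9 windows, against 12.7% of 32851 promoters of the same length. The 2 windows are shown because they held the core. They belong to Etv5, the gene with the largest difference, and to Dusp6, among those with the smallest. Capitals mark the core as read on the printed strand, which is TGAATG or its reverse complement CATTCA.
Etv5 (second start, chr16:22438319-22438618, minus strand): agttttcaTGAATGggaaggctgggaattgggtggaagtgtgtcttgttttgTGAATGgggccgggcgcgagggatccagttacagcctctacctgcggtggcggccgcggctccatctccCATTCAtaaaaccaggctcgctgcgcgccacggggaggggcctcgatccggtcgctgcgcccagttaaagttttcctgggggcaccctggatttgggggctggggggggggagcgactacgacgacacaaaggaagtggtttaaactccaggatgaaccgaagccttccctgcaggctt
Dusp6 (chr10:99262981-99263280, plus strand): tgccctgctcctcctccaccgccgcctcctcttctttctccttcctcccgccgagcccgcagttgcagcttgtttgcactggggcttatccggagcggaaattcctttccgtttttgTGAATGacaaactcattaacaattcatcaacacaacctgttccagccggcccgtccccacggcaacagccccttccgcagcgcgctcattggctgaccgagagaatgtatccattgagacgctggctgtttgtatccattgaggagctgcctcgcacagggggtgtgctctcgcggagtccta
The Etv5 window held 3 copies, which start 242, 198 and 129 bases before the gene start, and all 3 read TGAATGGG on one strand or the other. At least 3 copies of the core occurred in 0.17% of promoters, and 3 copies of TGAATGGG, an octamer chosen after its letters were seen, in 1 of 32851. The Dusp6 window held 1 copy, 133 bases before the start. The octamers TGAATGAA (1.30% of promoters), TGAATGGA (1.21%) and the ETS-type motif CCGGAAGT (3.89%) were in 0 of the 9 windows; the octamers contain the core, so these searches overlap. The first Etv5 window, both Etv1 windows and those of Spry1, Spry2, Spred1 and Spred2 had no copy of the core. Such matches are letters in a window and not measured binding.

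Of the Etv factors, Etv5 differed most and was the 1 gene of the 10 that passed the test. In Res 499 tumours its level ran from 7.75 over a median of 8.17 to 8.42, against 9.05, 9.28, 9.41 and 9.46 in the 4 control tumours. Every Res 499 tumour lay below every control tumour, with a gap of 0.63 between the groups. The mean was 8.15 ± 0.24 in Res 499 and 9.30 ± 0.18 in control (SD, n = 7 and 4), so Etv5 fell by 54.9% in Res 499 (log2 difference -1.15, SE 0.13, limma adjusted p = 0.00445). All 10 genes passed the filter on dim genes, and 1 of 10 fell and 0 rose. Of 16635 tested genes 59 passed (0.355%), 35 of which fell (0.21%) and 24 rose (0.144%); the total ran from 6 without control replicate 4 to 196 when Res 499 replicate 2 was left out. The probe set with the lower mean for Etv5 was at 5.37 in Res 499 and 5.48 in control, a difference of -0.11, and averaging both sets gave -0.63 (adjusted p = 0.00786). In bulk tumours, fewer cells of a type and less RNA per cell cannot be told apart.

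Etv1 and Etv4 had smaller differences that did not pass. Etv1 ran from 9.07 over a median of 9.41 to 9.65 in Res 499, against 9.60, 9.81, 9.82 and 9.88 in control. Its groups touched at 1 tumour, since 6 of 7 Res 499 tumours lay below every control, and the difference was -0.38 (SE 0.12, adjusted p = 0.177). The other Etv1 probe set differed by -0.32. Etv4 ran from 6.31 over a median of 6.38 to 6.87 in Res 499, against 6.65, 6.68, 6.96 and 6.96 in control, a difference of -0.35 (SE 0.11, adjusted p = 0.201). Again 6 of 7 tumours lay below every control, and the exception was Res 499 replicate 5 at 6.87.

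Among the Sprouty genes, which encode inhibitors induced by receptor signalling, Spry4 differed most. It ran from 8.77 over a median of 9.01 to 9.34 in Res 499, against 9.45, 9.57, 9.63 and 9.95 in control. The ranges did not overlap, and the difference was -0.56 (SE 0.13), which missed the threshold (adjusted p = 0.0843). Spry1 was 9.29 ± 0.20 in Res 499 and 9.72 ± 0.34 in control (SD, n = 7 and 4), a difference of -0.42 (SE 0.14, adjusted p = 0.229). Control replicate 3, at 9.30, lay within the Res 499 range of 9.12 to 9.70, while the other controls were at 9.58, 9.96 and 10.02. Spry2 was 9.01 ± 0.11 in Res 499 and 9.27 ± 0.17 in control, a difference of -0.26 (SE 0.09, adjusted p = 0.213), with 6 of 7 Res 499 tumours below every control.

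The Spred genes, relatives of Sprouty that recruit the Ras inhibitor neurofibromin, had differences that did not pass. Spred1 ran from 9.93 over a median of 10.04 to 10.21 in Res 499, against 10.25, 10.43, 10.49 and 10.51 in control. The ranges were separated by only 0.04, and the difference of -0.34 (SE 0.08) missed the threshold (adjusted p = 0.0805). Spred2 was 9.54 ± 0.18 in Res 499 and 9.77 ± 0.06 in control (SD, n = 7 and 4), a difference of -0.23 (SE 0.09, adjusted p = 0.312). Its control values lay close together, from 9.69 to 9.84, and Res 499 replicate 1 at 9.80 was the 1 tumour inside that range.

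The phosphatase genes showed the smallest differences. Dusp4 ran from 10.17 over a median of 10.73 to 10.85 in Res 499, against 10.43, 10.50, 10.93 and 10.93 in control, and 5 of 7 Res 499 tumours lay inside the control range. Its difference was -0.09 with an unadjusted 95% interval of -0.41 to 0.23 (adjusted p = 0.851), and it ran from -0.18 without control replicate 3 to -0.01 without control replicate 4. Dusp6 ran from 11.08 over a median of 11.50 to 11.67 in Res 499, against 11.28, 11.63, 11.68 and 11.75 in control. Its difference was -0.13 with an interval of -0.39 to 0.14 (adjusted p = 0.719), and it was -0.23 without control replicate 3 and -0.06 without Res 499 replicate 2. These intervals leave out a fall as large as that of Etv5, but not one as large as the differences of Spred1 or Spred2.

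**Figure D1:**
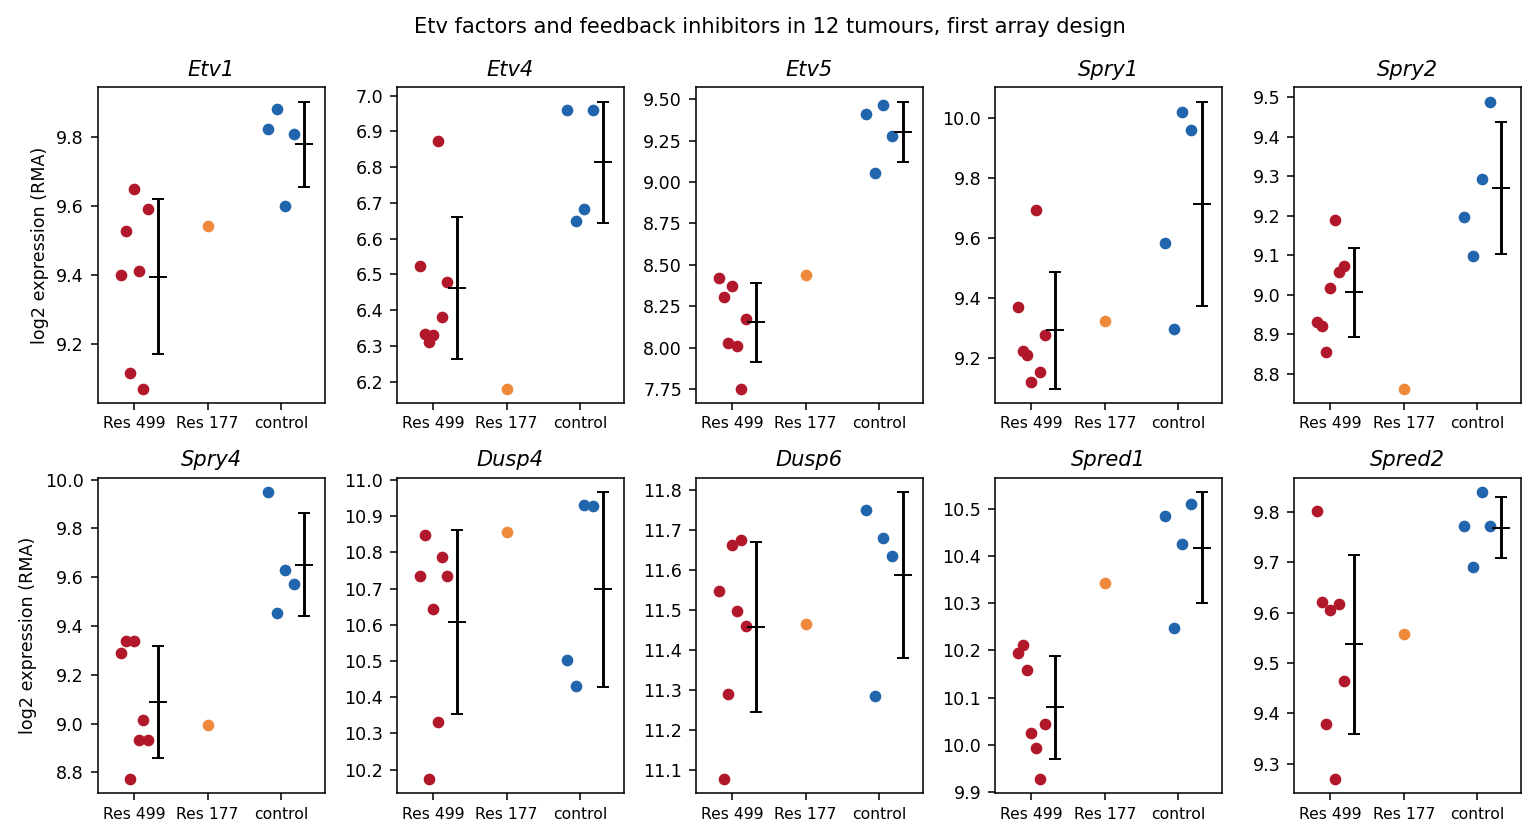
Log2 expression (y axis, RMA) of each of the 10 genes in 7 Res 499, 1 Res 177 and 4 control tumours of the first design; points are tumours, and bars are the mean ± SD. The Res 499 and control points do not overlap for Etv5, Spry4 and Spred1, and they overlap most for Dusp4 and Dusp6.

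Over the 10 genes, all 10 differences between Res 499 and control were negative, with a median of -0.35, where 48.3% of all tested genes were negative and their median was 0.0053. The ranges did not overlap, with Res 499 lower, for 3 of the 10 (Etv5, Spry4 and Spred1), against 192 of 16635 genes (1.15%). An unadjusted p under 0.05 was reached by 8 of the 10, against 2159 of all genes (13%), and with Res 499 lower by 8 against 1047 (6.29%). The genes were picked with this comparison known, so these shares describe them and carry no weight beyond that.

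The tumour with the lowest or highest value was not the same for every gene. Res 499 replicate 3 had the lowest value of its group for 4 genes (Etv4, Spry2, Spry4 and Dusp4), replicate 6 for 3 (Etv1, Etv5 and Spred1). Res 499 replicate 5 was the highest of its group for Etv4, Spry1 and Spry2 and the lowest for Spred2. Among controls, replicate 3 was the lowest for 9 of the 10 genes and the highest for Etv1. Each of the 7 Res 499 tumours had between 6 and 9 of the 10 genes below the lowest control. The share of all genes was not counted for single Res 499 tumours. The 10 genes were picked with this comparison known, so these counts only describe them.

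Res 177 had 1 tumour on the first design, and it was assumed to vary like the other groups. Etv5 was 8.44 in it, against 9.05 to 9.46 in control, a difference of -0.86 (SE 0.23, adjusted p = 0.478). Spry4 was at 8.99 (difference -0.66, SE 0.23), Etv4 at 6.18 (-0.63, SE 0.20) and Spry2 at 8.76 (-0.51, SE 0.15). These 4 genes lay below every control tumour, as did Etv1 at 9.54 and Spred2 at 9.56. That makes 6 of 10, where a single tumour lay below every control for 17.5% of tested genes. Spry1 was at 9.32, Spred1 at 10.34 and Dusp6 at 11.47, all inside the control range, with differences of -0.39, -0.07 and -0.12, and Dusp4 at 10.86 had a difference of 0.16. In all 9 of 10 differences were negative, with a median of -0.31, against 46.7% of genes and a median of 0.012. By limma, 0 of the 10 genes passed; of 16635 genes 0 fell (0%) and 35 rose (0.21%). At an unadjusted p under 0.05 with Res 177 lower there were 4 of the 10 and 253 of all (1.52%). This comparison uses the same 4 control tumours as that of Res 499. The genes were chosen with earlier results of these data known, so these shares only describe them.

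The second design held 1 Res 177 and 1 control tumour that the first did not use, so their values stand side by side with no test. Etv5 was 9.88 in the Res 177 tumour and 10.88 in the control tumour, a difference of -1.001; its other probe set, with the lower mean, differed by -0.79. Spry4 was 9.19 in Res 177 and 10.30 in control (-1.11), Spry2 was 8.60 and 9.42 (-0.81), Etv1 was 10.71 and 11.37 (-0.66), and Etv4 was 6.88 and 7.54 (-0.65). These 5 genes were lower by more than 0.5, as were 2.49% of 14953 genes above the same filter. The differences of Dusp6, Spred2, Spry1 and Spred1 were -0.43, -0.35, -0.34 and -0.25, and Dusp4 was 11.46 in Res 177 and 11.29 in control (0.17). In all, 9 of 10 differences were negative, with a median of -0.54, against 38.2% of genes and a median of 0.037. Dusp4 was the 1 positive gene in the Res 177 tumours of both designs. Since the genes were chosen with earlier results of these data known, the shares on this design only describe them.

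**Figure D2:**
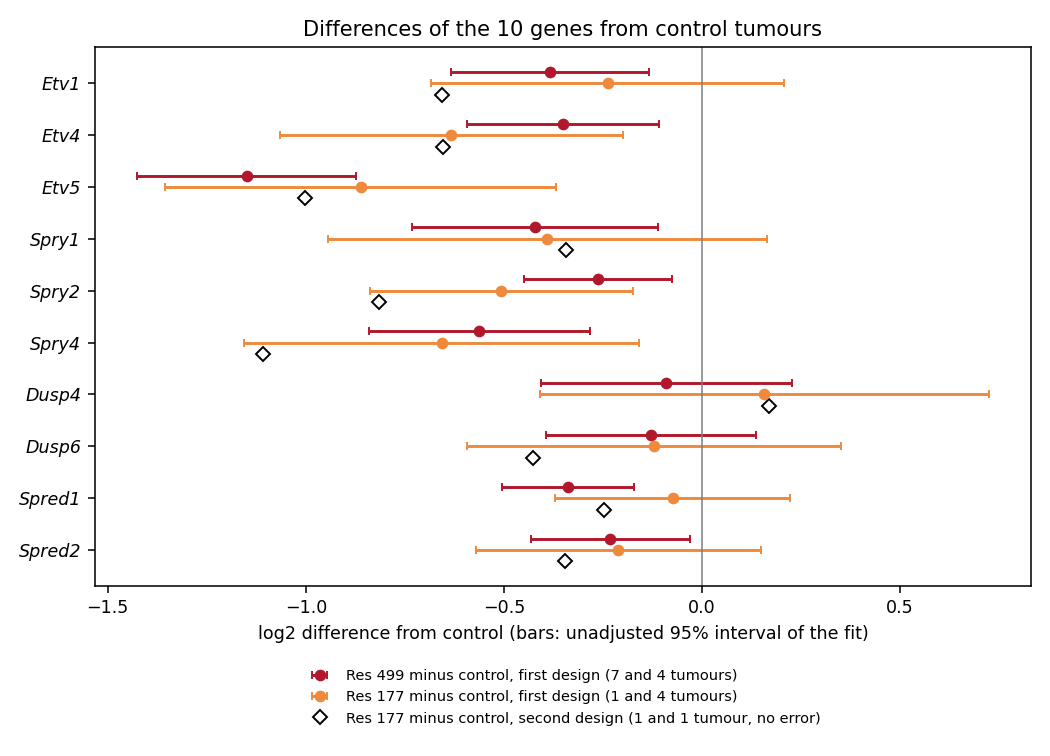
Log2 difference from control (x axis) of each gene in Res 499 (filled red) and Res 177 (filled orange) tumours of the first design, with unadjusted 95% intervals, and in the Res 177 tumour of the second design (open diamonds, 1 tumour a group, no interval). Etv5 lies at -1.15, -0.86 and -1.001, Spry4 at -0.56, -0.66 and -1.11, and Dusp4 at -0.09, 0.16 and 0.17.

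Set against each other, Res 499 and Res 177 tumours of the first design did not differ at the threshold in any of the 10 genes (adjusted p = 0.99998 for each), while 39 of 16635 genes (0.234%) did, 39 lower in Res 499 (0.234%) and 0 higher (0%). At an unadjusted p under 0.05 the counts were 0 of the 10 and 488 genes (2.93%). With 1 Res 177 tumour the intervals are wide: Etv5 differed by -0.29 (unadjusted 95% interval -0.76 to 0.18), Etv4 by 0.28 (-0.13 to 0.69), Spred1 by -0.26 (-0.55 to 0.02) and Spry2 by 0.24 (-0.07 to 0.56). Differences of Res 499 from Res 177 were negative for 7 of the 10 genes, against 52.5% of genes. All 7 Res 499 tumours lay above the Res 177 tumour for Etv4 and Spry2, 2 of 10 against 7.58% of genes, and below it for Etv5, Spred1 and Dusp4, 3 of 10 against 9.83%.

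Leukocyte genes were high in some Res 499 tumours and in the Res 177 tumour. The mean of Ptprc (CD45), Cd53, Laptm5, Coro1a and Tyrobp, pan-leukocyte and myeloid genes, ran from 6.23 to 8.47 in Res 499, was 7.68 in Res 177 and ran from 6.35 to 6.88 in control. All 5 had positive differences in Res 499 (Cd53 1.45, Tyrobp 1.21, Ptprc 1.16, Laptm5 0.66, Coro1a 0.52), and 0 of 5 passed over all genes by limma, 4 of them having an unadjusted p under 0.05. Of 12 macrophage markers 12 had positive differences (median 0.85), with means of 6.87 to 9.05 in Res 499, 8.22 in Res 177 and 7.01 to 7.53 in control; F4/80 (Adgre1) differed by 1.43. Relative to the control mean, the leukocyte genes of Res 499 replicates 1 to 7 were at 1.44, 1.78, 1.91, 0.33, 1.56, 0.31 and -0.33, against 0.32, -0.11, -0.21 and -0.00076 in control replicates 2 to 5. Res 499 replicate 7 was thus below every control, and replicates 4 and 6 were at the level of control replicate 2. Etv5 in these 3 Res 499 tumours was 8.37 (replicate 4), 7.75 (replicate 6) and 8.17 (replicate 7). It was 9.41 in control replicate 2 and ran from 9.05 to 9.46 over the controls. The part of leukocyte content in the Etv5 difference was not tested beyond a fit with it as a covariate. The controls spanned only -0.21 to 0.32 in leukocyte level, so this fit had no control at the level of the higher Res 499 tumours. In that fit Etv5 differed by -1.19 (adjusted p = 0.0240), Spry4 by -0.59 (adjusted p = 0.178) and Spred1 by -0.42 (adjusted p = 0.103). Dusp4 then turned to 0.057 and Dusp6 was at -0.0016.

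**Figure D3:**
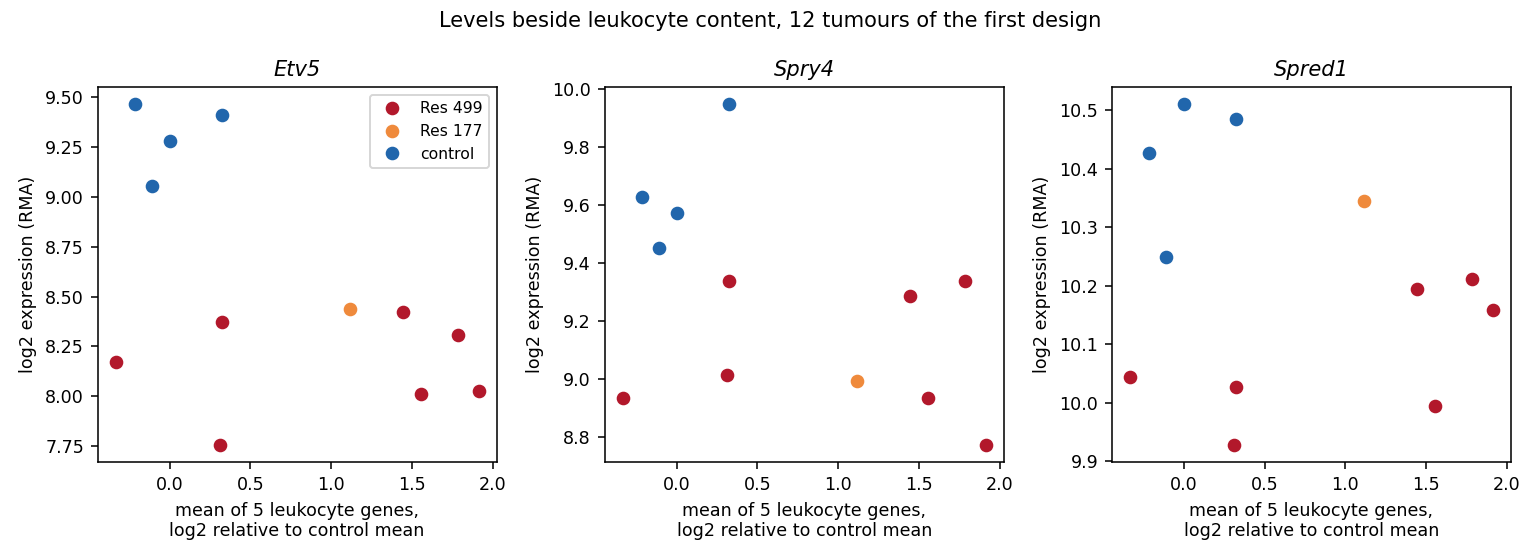
Log2 expression of Etv5, Spry4 and Spred1 (y axes, RMA) against the mean log2 level of 5 leukocyte genes relative to the control mean (x axis), 1 point for each of the 7 Res 499, 1 Res 177 and 4 control tumours. Res 499 tumours lie below the controls on the y axes and at leukocyte levels from -0.33 to 1.91. Controls span only -0.21 to 0.32, so the Res 499 tumours with more leukocyte signal have no control at their level.

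Markers of the melanocyte lineage were strong in all tumours: the mean of 11 markers was 11.83 to 12.32 in Res 499, 12.08 in Res 177 and 11.90 to 11.98 in control. In Res 499 minus control Pmel differed by 0.16, Mlana by 0.16, Mitf by 0.02, Dct by -0.04, Tyr by -0.05 and Sox10 by -0.26, and 0 of the 11 passed by limma (unadjusted p under 0.05 for 3 higher and 1 lower). Keratinocyte markers were high in the Res 177 tumour. The mean of 7 keratinocyte markers was 5.59 to 5.77 in Res 499, 7.89 in the Res 177 tumour and 5.57 to 5.79 in control, and 5 of 7 rose in Res 177 (Krt14, Krt17, Dsp, Dsc3 and Perp). On the second design Res 177 minus control had a median of 1.08 over 7 keratinocyte markers (1 negative), 1.43 over the 5 leukocyte genes (0 negative) and 0.999 over the 12 macrophage markers (0 negative), in the same tumour pair as the differences of Etv5 and Spry4 there. The part of these markers in the Res 177 values of either design was not tested. Differences in Res 499 were positive for 6 of 6 T cell, 7 of 8 endothelial, 7 of 8 fibroblast and 1 of 6 skeletal muscle markers (medians 0.22, 0.15, 0.31 and -0.17), and 0 passed by limma, adjusted or not.

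The wider pathway was read through 7 further lists with 113 tested genes, in which 0 genes rose and 0 fell in Res 499 by limma. At an unadjusted p under 0.05 9 were higher and 10 lower. Of all 16635 tested genes, 13% had such a p in either direction and 6.29% with Res 499 lower. Of the other Sprouty, Spred and MAPK phosphatase genes, 13 of 14 were tested, 9 were positive and the median was 0.05. The immediate-early phosphatase gene Dusp1 was 9.16 ± 0.18 in Res 499 and 8.65 ± 0.27 in control (SD, n = 7 and 4), a difference of 0.51 (adjusted p = 0.0968). Spred3 differed by -0.36 (adjusted p = 0.0915), Dusp2 by 0.28 and Dusp16 by 0.27. Of the other transcripts that ERK induces, 20 of 21 were tested, 12 were negative and the median was -0.02. Here Epha4, an ephrin receptor gene, differed by 0.48, the stress-response gene Ier3 by -0.43, and the AP-1 genes Fosl2 and Fosb by -0.35 and -0.27.

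Upstream, 17 of 21 receptor tyrosine kinase genes were tested (10 positive, median 0.10). Erbb3, a neuregulin receptor of the melanocyte and Schwann cell lineages, was 9.38 ± 0.33 in Res 499 and 10.39 ± 0.41 in control (SD, n = 7 and 4), a difference of -1.01 (SE 0.20) that missed the threshold (adjusted p = 0.0526). It differed by -0.999 in the Res 177 tumour of the first design and by -1.004 in that of the second. Axl differed by 0.65, Fgfr1 by 0.50 and Pdgfra by 0.43. Of their ligands 21 of 26 were tested (14 positive, median 0.04), with Igf1 at 0.65, Kitl, the ligand of Kit, at 0.60, Gas6, the ligand of Axl, at 0.47 and Pdgfc at 0.41. Of the Ras, Raf, MEK and ERK genes and their adaptors 21 of 29 were tested. In this list 15 were negative and the median was -0.12, with the docking protein genes Gab1 and Gab2 at -0.47 and -0.27 and the Ras inhibitors Nf1 and Rasa1 at -0.28 and -0.27.

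Of the other ETS factors 17 of 22 were tested (9 negative, median -0.0050). The myeloid factor Spi1 differed by 0.61, Fli1 by 0.59, Elf4 by 0.31 and the endothelial factor Erg by 0.27, beside the macrophage marker median of 0.85 in the same tumours. Cic, which encodes Capicua, differed by -0.30 (SE 0.15, adjusted p = 0.446), and its partner genes Atxn1 and Atxn1l by 0.02 and -0.04. Atxn2, also in that list of 4, differed by -0.20.

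**Figure D4:**
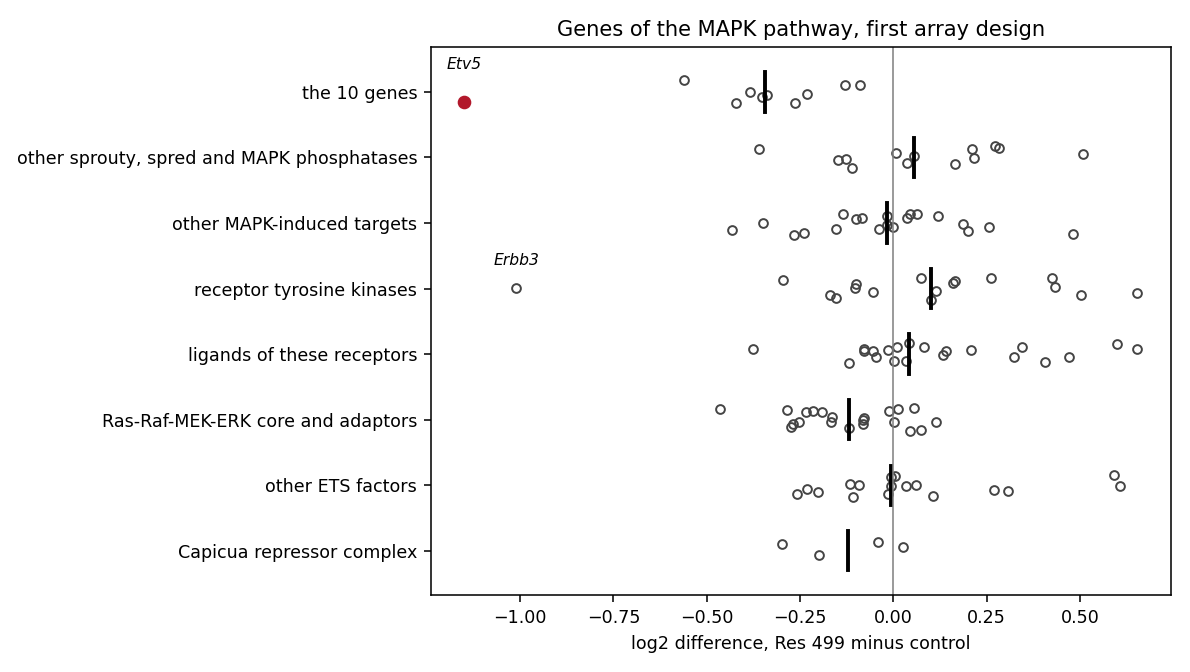
Log2 difference, Res 499 minus control (x axis), of every tested gene in the 10 genes and 7 other MAPK pathway lists (rows); open circles did not pass, the filled circle (Etv5) passed at an adjusted p under 0.05, and vertical bars are list medians. The median of the 10 genes is -0.35, and those of the other lists run from -0.12 to 0.10. The 10 genes were picked with this comparison known, so their median only describes them.

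Over the 12 tumours of the first design, the named genes whose levels were most like those of Etv5 (highest Pearson r) were Ctsf (r = 0.94), Tns2 (0.92), Prkca (0.91), Ehd3 (0.91), Hip1 (0.91) and Lgi4 (0.91). This likeness includes the difference between groups: Ctsf, a cathepsin gene, differed by -0.42 in Res 499, Tns2 by -0.74, the protein kinase C gene Prkca by -0.32, Ehd3 by -0.87, Hip1 by -0.63 and Lgi4 by -1.07. Spred1 (0.88) and Spry4 (0.88) ranked 18 and 21 of 14694, while Dusp6 (0.33) and Dusp4 (0.26) ranked 3142 and 3810. With the group means removed, over 11 Res 499 and control tumours, the most alike were Rgmb (0.91), Mavs (0.91), the ERK-induced cyclin gene Ccnd1 (0.89), Emx2 (0.87), C1qtnf1 (0.86) and Pacsin1 (0.85). Spry4 (0.70) and Spred1 (0.68) then ranked 96 and 144, and Etv4 (-0.02) and Spry2 (-0.09) lay close to 0. These values rank genes and were given no p.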

How the data were processed

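Total RNA of 14 tumours was hybridised to 2 designs of Affymetrix array. The deposited values are log2 expression per probe set, made by the authors with RMA in oligo, per the submitters' processing notes; the sources used here do not give versions, build or annotation, and the log2 scale was inferred from the values' range. RMA normalizes quantiles within a design, so the designs were never pooled. Groups follow the subline label, and replicate numbers follow deposit order and are names only. Separate mice are not stated in the labels, so p-values measure the spread between these tumours only, which may be technical in part. Of 41345 and 35556 probe sets, 23521 and 21789 had 1 symbol, 1814 and 1621 several and 16010 and 12146 none; symbols were checked against RefSeq through Entrez numbers, which changed 0. On the first design the dimmest 25% of 22180 genes were left out and 16635 tested with limma 3.58.1 in R 4.3.3 (lmFit and eBayes, 3 groups, Benjamini-Hochberg over all genes, threshold 0.05). The fit was tested on simulated data. Arrays carry no read depth; the number of tumours limits the precision. No 2 arrays were identical, and array correlations on the first design ran from 0.977 to 0.993. The members and lists were chosen with earlier results of these data known. Named were all 10 genes, any gene of a pathway list past the threshold or otherwise its 4 largest differences, 12 fixed marker genes, and the 6 genes most like Etv5 by each measure; Ccnd1 is named by the last. Alternatives covered the filter, probe sets, normalization, prior, array weights, leukocyte content, samples, threshold and each array left out.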

Additional observations from a re-analysis of the deposited data

Results flagged for a closer look

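Of 20 groups examined (10 genes, Res 499 and control), 1 held a tumour far from the others. Etv4 in Res 499 replicate 5 was at 6.87, with the nearest of the other 6 tumours at 6.52, a gap of 0.62 of the group's range. Chance alone gives about 1 such case in 20 groups.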

How the results depend on the processing

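Etv5 kept its direction and its side of the threshold in Res 499 under all 21 alternatives, from -1.23 to -0.63 (adjusted p from 0.00207 to 0.0240), and from -1.23 to -1.08 over the 11 fits that left out 1 tumour. Over the 10 genes, direction and side of the threshold were kept by 203 of 210 alternative values in Res 499 and 139 of 140 in Res 177 on the first design. Some alternatives could change little. In Res 499 the fit of only the 2 groups repeated the main fit, and the filters on dim genes left every difference as it was. The laxer threshold of 0.10 also kept the main fit, so Etv5, which had passed there, was bound to pass again. Every alternative in Res 499 reused tumours of the comparison by which the genes were chosen, with Etv5 known to be lower. The counts of values kept are therefore not independent support for the Etv5 difference. With 1 Res 177 tumour, keeping the same side of the threshold was nearly fixed in advance. Spry4 and Spred1 passed in Res 499 with array weights (-0.58 and -0.35), at a threshold of 0.10 and without Res 499 replicate 2 (-0.60 and -0.36). More genes were called over all genes in these settings too. Under the other 18 alternatives both stayed short of the threshold, with limma adjusted p up to 0.243 for Spry4 and 0.249 for Spred1. Leukocyte content as a covariate turned Dusp4 to 0.057 in Res 499 and Dusp6 to 0.020 in Res 177. The cause was not tested. On the second design, which has no test, 2 of 20 values moved in size and kept their direction: Spred2 moved to -0.23 with probe sets averaged and to -0.43 with arrays shifted to equal medians. The number of genes called in Res 499 was 59, and it was 356 with array weights, 25 with leukocyte content and 229 at a threshold of 0.10; leaving out 1 tumour the lowest was 6 (control replicate 4) and the highest 196 (Res 499 replicate 2), with 11 and 22 without control replicates 2 and 3 and 24, 14, 18, 23 and 37 without Res 499 replicates 1, 3, 4, 6 and 7. The number was 35 in Res 177 against control and 39 in Res 499 against Res 177, and with no filter on dim genes 101 and 113, and under the stricter filter, at 50% of genes, 2 and 2. Scaling moved the median of all genes by -0.02 at most. Leaving out the Res 177 tumour left no Res 177 comparison on the first design. No paired analysis was possible because the labels give nothing that links a Res tumour to a control tumour.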
